A study of Saccharomyces cerevisiae with 12 samples.

Results

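The mutants fhf1 and fhf2 are separate UV-induced derivatives of Saccharomyces cerevisiae Y55, a budding yeast strain labelled JT20150 with mating type alpha and the sugar loci MAL1 and SUC1. The labels describe both as fast fermenters of maltose, a disaccharide of glucose. This comparison takes the 3 cultures of fhf1 and the 3 cultures of fhf2 out of 12 in all, and sets them against each other directly. The other 6 cultures are 3 of the mutant fhf3 and 3 of the Y55 wild type, and they served for the spread between cultures and as values beside the main ones. Every culture was a stirred 200 mL fermentation of 20% maltose in yeast extract and peptone at 22 °C, started at an optical density of 0.2 from a preculture grown for 72 h at 30 °C on glucose, and harvested on day 2. All groups share the Y55 background. Each mutant is known here only by its name, and the genes mutated in it are not named in the labels. Strain and stage of fermentation cannot be told apart, because each strain was sampled on 1 day.

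Messenger RNA was read on 1-colour NimbleGen arrays whose 8 probes for each gene follow the sequence of strain S288C. A level below is the log2 value of a gene minus the median gene of the same array. A difference is fhf1 minus fhf2 on the log2 scale, minus the median difference of all 5769 genes, so the wild type does not enter it. A difference of 1 is a 2-fold change, and levels of different genes are not compared because probes differ in brightness. The deposited arrays were not at 1 overall level. Their medians were 12.84, 12.15 and 12.85 in fhf1 and 12.66, 12.70 and 12.66 in fhf2, and they ran between 12.09 and 12.98 over all 12 arrays. The test was therefore run on the values as deposited and, in a second version chosen after the data were seen, with every array brought to a common median. Both give the same differences, while the median standard error was 0.26 as deposited and 0.13 at a common median. Rank correlations (Spearman, across genes) ran between 0.947 and 0.979 among fhf1 cultures, between 0.984 and 0.988 among fhf2 cultures, and between 0.945 and 0.979 across the strains. The median SD over 3 cultures was 0.17 in fhf1 and 0.11 in fhf2. The cultures are labelled as separate, and whether repeat hybridisations were averaged is not settled.

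Yeast growing on maltose imports the sugar through a proton symporter and splits it into glucose inside the cell. Glucose is then phosphorylated by hexokinases and fermented to ethanol by way of pyruvate decarboxylase. Genes for other carbon sources are held down by glucose repression, in which the hexokinase Hxk2 and the repressor Mig1 act, and genes for poor nitrogen sources are held down while better ones last. A haploid alpha cell expresses alpha-specific genes, responds to mating pheromone and starts each division cycle with a burst of G1 cyclins.

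Few genes separated the mutants. On the values as deposited, limma called 15 of 5769 genes (0.260%) at an adjusted p under 0.05, 8 of them higher in fhf1 (0.139% of all genes) and 7 lower (0.121%). With arrays at a common median it called 98 genes (1.70%), 36 higher in fhf1 (0.624%) and 62 lower (1.07%), and these include all 15 of the first set. The genes higher in fhf1 were led by the proline permease PUT4, the hexose transporter homologue HXT13, the glycerol symporter STL1, the pyruvate decarboxylase PDC5, the serine deaminase CHA1 and the lysine enzyme LYS9. Those lower in fhf1 were led by the cell fusion gene FUS2, the G1 cyclins CLN2 and PCL1, the meiotic gene REC114, the glucose transporter HXT3, the guanine nucleotide enzyme IMD3 and the fatty acid elongase ELO2. The called differences were between 0.49 and 1.68 in size for higher genes, with a median of 0.80, and between 0.47 and 1.17 for lower genes, with a median of 0.67. The 5th and 95th percentiles of all genes' differences were -0.38 and 0.30, and 19 genes differed by more than 1 in size.

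The 3 fhf1 cultures did not overlap the 3 fhf2 cultures in any of the 98 called genes. Over all genes at a common median, the cultures did not overlap in 1136 (19.7%), with fhf1 higher in 605 (10.5%) and lower in 531 (9.20%). A test against a change beyond 2-fold called 0 genes by limma in both versions. In it, 2 genes had an unadjusted p under 0.05 as deposited and 3 at a common median. Without a threshold on size, an unadjusted p under 0.05 was reached by 160 genes as deposited and by 804 at a common median. The number of calls depended on single cultures. As deposited, 2 of the 15 calls were kept without fhf1 culture 1, 3 without fhf2 culture 1, 3 without fhf2 culture 3, 7 without fhf1 culture 2, 7 without fhf2 culture 2 and 10 without fhf1 culture 3. PUT4 and HXT13 were the calls that every one of these fits kept. At a common median, 45 of the 98 were kept without fhf2 culture 3, 60 without fhf2 culture 1, and between 73 and 91 without the others. Leaving out fhf1 culture 3 raised the number called to 223. With each gene's own variance, 36 of the 98 were kept at a common median and 0 of the 15 as deposited. The calls lost at a common median included PUT4, CLN2, ELO2 and LYS20 (limma adjusted p = 0.0853, 0.0937, 0.064 and 0.0732). Lost calls below are for left-out cultures unless another setting is named. In the rest of the text, called means called at a common median, and adjusted p-values are from that fit unless given as deposited. Counts of calls in a list are to be read beside the 1.70% called over all genes, a share at which short lists often hold 0.

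**Figure D1:**
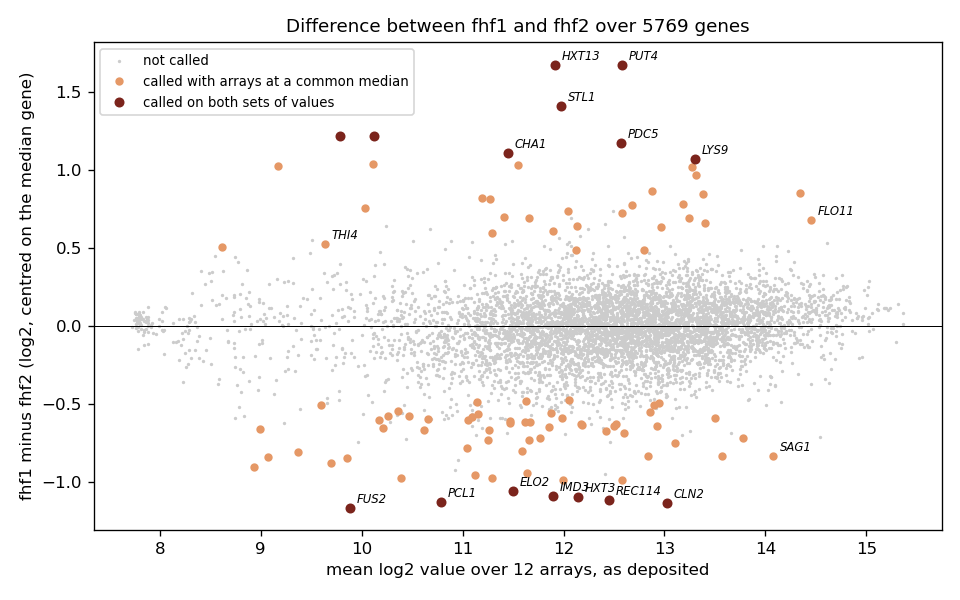
Difference between fhf1 and fhf2 (vertical axis, log2, centred on the median gene) against the mean log2 value over 12 arrays (horizontal axis) for 5769 genes. Dark points are the 15 genes called in both versions of the test and orange points the others of the 98 called at a common median. The genes furthest from 0 are PUT4 and HXT13 at 1.68 and 1.67 above, and FUS2 at -1.17 below.

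Genes of sugar alcohol use were higher in fhf1. HXT13, HXT15, HXT16 and HXT17 are members of the hexose transporter family that are known to carry mannitol and sorbitol, and each sits next to a dehydrogenase gene for such a sugar alcohol: HXT13 beside DSF1 on chromosome V, HXT17 beside MAN2 on chromosome XIV, and HXT15 beside SOR2 on chromosome IV. HXT16 and SOR1, on chromosome X, had no values. Of the 6 measured genes, a set chosen after their values were seen, 5 were called higher and HXT15 was not. As deposited, HXT13 was the 1 call among the 6. With each gene's own variance, DSF1, MAN2 and SOR2 lost the call (limma adjusted p = 0.101, 0.0963 and 0.0617). The median difference of the 6 was 0.89, against 0 over all genes.

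HXT13 stood at 0.33, 0.07 and 0.34 in fhf1, against -1.38, -1.30 and -1.61 in fhf2. All fhf1 cultures were thus above all fhf2 cultures, with a gap far wider than the spread within either strain. The difference was 1.67 (SE 0.13), a ratio of 3.19, with a limma adjusted p of 4.08e-07, and 8.99e-06 as deposited. DSF1, a mannitol dehydrogenase gene, stood at 1.82, 1.79 and 1.44 in fhf1 and at 0.68, 0.73 and 0.72 in fhf2. It differed by 0.97 (SE 0.17, limma adjusted p = 0.00353). MAN2, a near-identical mannitol dehydrogenase gene, stood at 1.77, 1.78 and 1.62 in fhf1 and at 0.64, 0.65 and 0.79 in fhf2, a difference of 1.02 (SE 0.17, limma adjusted p = 0.00274). HXT17 stood at -0.69, -0.88 and -0.87 in fhf1 and at -1.87, -1.56 and -1.50 in fhf2, a difference of 0.82 (limma adjusted p = 0.000731). In each of these genes the lowest fhf1 culture lay above the highest fhf2 culture. SOR2, a sorbitol dehydrogenase gene, differed by 0.74 (limma adjusted p = 0.00499). HXT15 stood at 1.09, 0.85 and 0.56 in fhf1 and at 0.69, 0.64 and 0.71 in fhf2, so the strains overlapped (difference 0.14, limma adjusted p = 0.724). YNR071C, which lies on the other side of HXT17 and resembles aldose epimerases, was also called, at 0.66, and was named after its values were seen. The coding sequences within this family are closely alike, so the probes may not tell its members apart, and the 5 calls are not 5 separate observations.

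Beside wild type, HXT13, DSF1 and MAN2 were at or near the parent's level in fhf1 and below it in fhf2. HXT15 in fhf2 was at -0.19 from wild type, not called (limma adjusted p = 0.553). HXT13 differed from wild type by 0.03 in fhf1, -1.64 in fhf2 and -1.73 in fhf3. DSF1 differed by 0.08, -0.89 and -2.48 in the same order, and MAN2 by 0.19, -0.83 and -2.54. The falls in fhf2 and fhf3 were called for the 3 genes and the fhf1 values were not. These comparisons share the 3 wild-type cultures, so they are given side by side only.

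**Figure D2:**
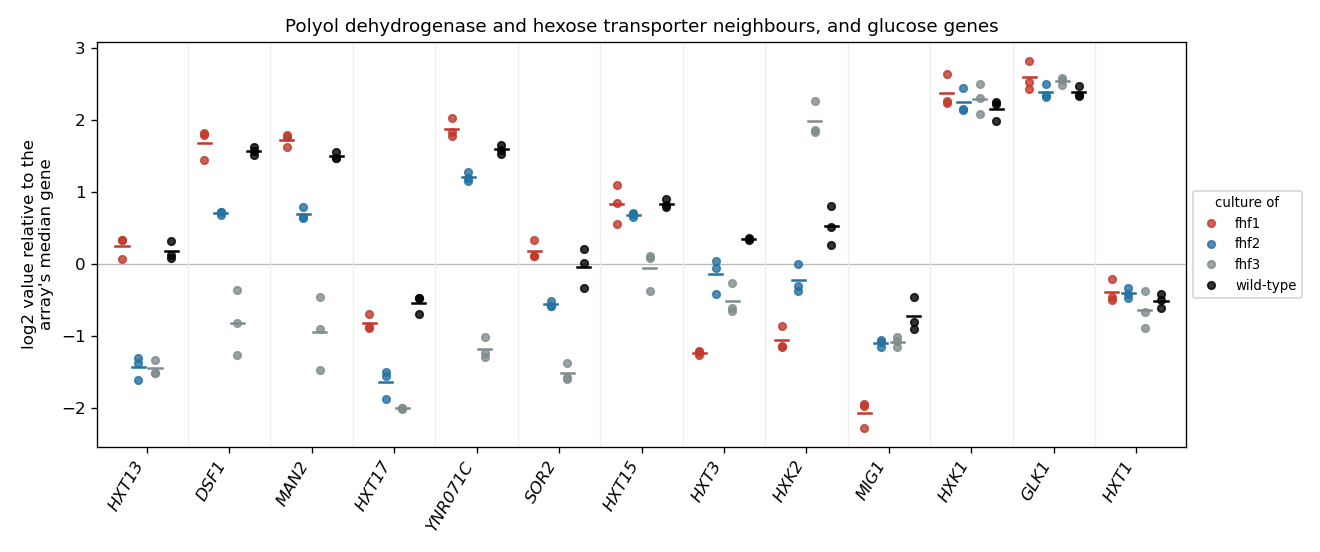
Level of each gene (log2 relative to the median gene of its array) in the 3 cultures of fhf1, fhf2, fhf3 and wild type, with short lines at the means. HXT13, DSF1, MAN2, HXT17, YNR071C and SOR2 lie higher in fhf1 than in fhf2, HXT3, HXK2 and MIG1 lie lower in fhf1, and HXT15, HXK1, GLK1 and HXT1 overlap between the strains.

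Genes of glucose uptake and glucose repression were in part lower in fhf1. Of 18 hexose transporters, 2 were called higher (HXT13 and HXT17) and 1 lower (HXT3). Of 51 genes of glucose sensing and repression, 3 were called lower (MIG1, HXK2 and RAS1) and 0 higher, and the list's median difference was 0.05. As deposited, none of these 3 passed (limma adjusted p = 0.0674 for MIG1 and 0.329 for HXK2). With each gene's own variance HXK2 also lost the call (limma adjusted p = 0.106). HXT3, a low-affinity glucose transporter, stood at -1.21, -1.22 and -1.27 in fhf1, against -0.06, -0.41 and 0.04 in fhf2. The fhf1 cultures lay close together and all below fhf2. The difference was -1.10 (SE 0.13, limma adjusted p = 0.000148, and 0.0229 as deposited), which is 2.14-fold lower in fhf1.

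HXK2, the hexokinase that also takes part in glucose repression, stood at -0.87, -1.15 and -1.14 in fhf1 and at -0.30, -0.37 and -0.01 in fhf2. The difference was -0.84 (SE 0.16, limma adjusted p = 0.00604), and without fhf2 culture 3 the adjusted p was 0.065. MIG1, the zinc finger repressor of that pathway, stood at -2.28, -1.97 and -1.95 in fhf1 and at -1.05, -1.16 and -1.08 in fhf2, a difference of -0.98 (SE 0.13, limma adjusted p = 0.000331). For both genes the strains did not overlap. RAS1, a GTPase of the cyclic AMP pathway, differed by -0.66 (limma adjusted p = 0.00552, and 0.0524 without fhf2 culture 3). The other hexose kinases and main transporters did not pass the test. HXK1 differed by 0.12, GLK1 by 0.20, HXT1 by 0.01, HXT2 by -0.20, HXT4 by -0.17, HXT5 by -0.30, HXT6 by 0.12, HXT7 by -0.02 and GAL2 by -0.17, with the lowest limma adjusted p among these at 0.263. HXT6 and HXT7 are near-identical and are uncertain as single genes.

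Set beside wild type, HXT3 differed by -1.61 in fhf1, -0.52 in fhf2 and -0.95 in fhf3, and all 3 were called. HXK2 differed by -1.62 in fhf1, -0.79 in fhf2 and 1.36 in fhf3, all called, so the third mutant stood on the other side of the parent. MIG1 differed by -1.38 in fhf1 and by -0.45 in fhf3, both called, and by -0.40 in fhf2, which did not pass (limma adjusted p = 0.0766). As deposited, HXT3 in fhf2 (limma adjusted p = 0.946), HXK2 in fhf2 (0.199) and MIG1 in fhf3 (0.274) did not pass. Some wild-type calls given below also did not pass as deposited, among them SAG1 in fhf1 (0.154) and FUS2 in fhf2 (0.0627). Others were SAG1 in fhf3 (0.485), TEC1 in fhf3 (0.0823) and in fhf2, IMD3 in fhf2 (0.256) and CTR3 in fhf1 (0.0593).

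No gene of maltose and sucrose use passed the test. Of 14 measured, 0 were called by limma in either version, and the median difference was 0.13. Over all genes 1.70% were called, so 0 of 14 does not set this list apart. The cultures did not overlap in 3 (SUC2, ZNF1 and IMA1), a share close to the 19.7% over all genes. The maltose permease gene MAL31 stood at 2.34, 2.76 and 2.12 in fhf1 and at 2.25, 2.24 and 1.98 in fhf2. The maltase genes MAL32 and MAL12 differed by 0.14 and 0.20, and they may share signal, so they may not be separate readings. The activator gene MAL33 differed by 0.06, and the isomaltase genes IMA1, IMA2, IMA3 and IMA5 by 0.28, 0.30, 0.21 and 0.12. SUC2, which encodes invertase, stood at 0.49, 0.46 and 0.37 in fhf1 and at 1.08, 0.68 and 0.84 in fhf2. The difference of -0.44 missed the threshold (limma adjusted p = 0.0905, and 0.0359 with array weights). ZNF1, a regulator of respiratory and maltose genes, differed by 0.27, and the maltose transporter gene MPH2 by -0.11. MAL11, MAL13 and YPR196W were among the dimmest genes of the arrays, below 0.4% of the ranking by mean signal in every case, where a fall could hardly be seen. MAL11 and MAL13 belong to MAL1, the locus that the strain label names, and so does MAL12, which ranked above 97.5% of genes. The probes follow S288C, so which gene copies the MAL and SUC2 probes read in this strain was not tested.

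Fermentation beyond the sugar step differed in single genes. Of 22 genes for pyruvate decarboxylases and for alcohol and aldehyde dehydrogenases, PDC5 alone was called. It is a minor pyruvate decarboxylase gene, and stood at 0.88, 1.35 and 1.05 in fhf1, against -0.08, -0.04 and -0.16 in fhf2. Every fhf1 culture was above every fhf2 culture, and the difference was 1.18 (SE 0.14, limma adjusted p = 0.000148, and 0.0136 as deposited), a ratio of 2.26. The main isozyme gene PDC1 differed by -0.02 and PDC6 by 0.16. PDC5 was above wild type by 1.40 in fhf1, called, while fhf2 was at 0.22 and fhf3 at -0.25, neither called. Of 24 glycolysis genes, 0 were called by limma in either version (median difference 0.11). Of 20 pentose phosphate genes, RKI1, a ribose phosphate isomerase, was called lower at -0.72 (limma adjusted p = 0.00539).

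Among 17 glycerol genes, STL1 was the call. It encodes a symporter that takes up glycerol with protons, and stood at 1.05, 0.11 and 0.35 in fhf1 and at -0.81, -0.88 and -1.06 in fhf2. The first fhf1 culture was well above the other fhf1 cultures, and all were above fhf2. The difference was 1.41 (SE 0.18, limma adjusted p = 0.000221, and 0.000813 as deposited). Beside wild type, STL1 was at 0.57 in fhf1, -0.85 in fhf2 and -1.68 in fhf3, all called. Of 33 genes of gluconeogenesis, the glyoxylate cycle and the carnitine shuttle, SFC1, a mitochondrial succinate and fumarate carrier, was lower at -0.60 and MAE1, the malic enzyme, at -0.62. The calls of both were lost without fhf1 culture 2 (limma adjusted p = 0.0548 and 0.129) and without fhf2 culture 3 (0.0647 and 0.114), and that of MAE1 also without fhf2 culture 1 or 2. The peroxisomal adenine nucleotide carrier ANT1 was lower at -0.47, a call lost in 5 of the 6 fits that leave out a culture. None of 27 genes of the citric acid cycle and none of 45 of the respiratory chain and ATP synthase was called by limma.

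Nitrogen genes were higher in fhf1 in a few members. Of 39 genes under nitrogen catabolite repression, 2 were called higher and 0 lower, with a median difference of 0.14 and 31 of the 39 above 0. PUT4, the high-affinity proline permease, stood at 1.12, 0.43 and 0.45 in fhf1, against -0.80, -0.97 and -1.29 in fhf2. The lowest fhf1 culture was more than 1 log2 unit above the highest fhf2 culture. The difference was 1.68 (SE 0.25), a ratio of 3.20, with a limma adjusted p of 0.000703, and 8.99e-06 as deposited. PUT1 and PUT2, the enzymes that break proline down, differed by 0.41 and 0.18, and their activator PUT3 by 0.22, and none of these passed. DAL3, an enzyme of allantoin breakdown, stood at -2.15, -1.78 and -1.12 in fhf1 and at -2.70, -2.43 and -3.06 in fhf2. It differed by 1.04 (SE 0.25, limma adjusted p = 0.0349), and the call was lost without fhf1 culture 2 or 3 and without fhf2 culture 1 or 3, with adjusted p-values between 0.0697 and 0.219. The general amino acid permease GAP1 differed by 0.27 and the ammonium permease MEP2 by 0.40, and neither passed.

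PUT4 differed from wild type by 0.59 in fhf1, which did not pass (limma adjusted p = 0.118), by -1.10 in fhf2, which did (0.0091), and by 0.38 in fhf3 (0.218). DAL3 was above wild type in the 3 mutants, by 1.90 in fhf1, 0.86 in fhf2 and 1.89 in fhf3, all called.

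CHA1 breaks down serine and threonine. It stood at 0.40, 0.07 and -0.04 in fhf1, against -0.82, -1.20 and -0.91 in fhf2, with no overlap. The difference was 1.11 (SE 0.14, limma adjusted p = 0.000148, and 0.0229 as deposited). CHA1 was above wild type by 1.01 in fhf1, called, at -0.10 in fhf2, not called, and below it by -1.77 in fhf3, called.

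The lysine pathway was higher in fhf1 in 3 genes. LYS9, a saccharopine dehydrogenase near the end of lysine synthesis, stood at 1.12, 1.22 and 0.77 in fhf1 and at -0.15, -0.09 and 0.10 in fhf2. The difference was 1.07 (SE 0.15, limma adjusted p = 0.000341, and 0.0264 as deposited), a ratio of 2.10. LYS20, a homocitrate synthase of the first step, stood at 0.72, 0.85 and 0.60 in fhf1 and at -0.22, 0.02 and 0.01 in fhf2, a difference of 0.78 (limma adjusted p = 0.00504). LYS14, the transcriptional activator of the pathway, stood at -0.89, -0.77 and -0.99 in fhf1 and at -1.48, -1.59 and -1.38 in fhf2, a difference of 0.59 (limma adjusted p = 0.00956, and 0.065 without fhf2 culture 2). The other lysine genes lay above 0 without passing the test. LYS4 differed by 0.51, LYS21 by 0.51, LYS12 by 0.46, LYS1 by 0.42, LYS2 by 0.42 and LYS5 by 0.01. The lysine set of 9 was chosen after the values were seen, and its median difference was 0.51. LYS20 and LYS21 are close paralogues and may share signal.

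Beside wild type, LYS9 was higher by 0.51 in fhf1, lower by -0.56 in fhf2 and higher by 1.02 in fhf3, all called. LYS20 was at -0.28 in fhf1, not called, at -1.06 in fhf2, called, and at -0.07 in fhf3, not called. In the wider list of 68 amino acid synthesis genes, LYS9 and LYS20 were the calls and the median difference was 0.02.

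**Figure D3:**
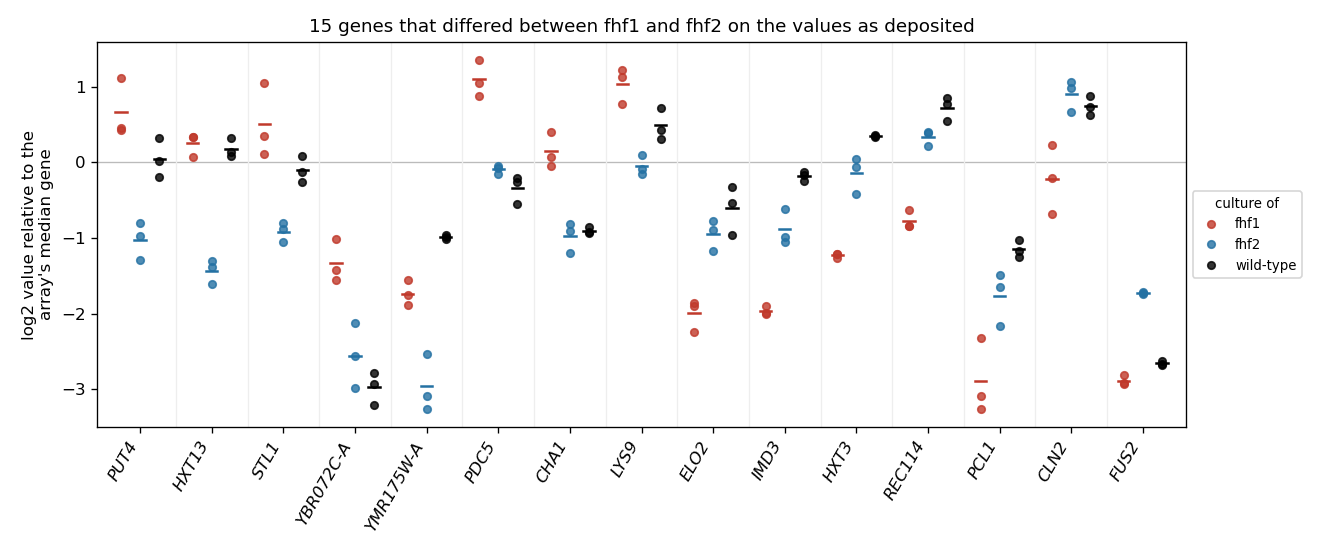
Level (log2 relative to the median gene of its array) in each of the 3 cultures of fhf1, fhf2 and wild type for the 15 genes called as deposited, with short lines at the means. From PUT4 to LYS9 every fhf1 culture lies above every fhf2 culture, and from ELO2 to FUS2 every fhf1 culture lies below.

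Some mating and pheromone genes were lower in fhf1. Of 34 genes of the haploid and pheromone response, 4 were called lower and 0 higher, and the list's median difference was -0.13. FUS2, which acts in the fusion of mating cells, stood at -2.81, -2.91 and -2.93 in fhf1, against -1.73, -1.74 and -1.71 in fhf2. The cultures of each strain lay close together, and the strains did not overlap. The difference was -1.17 (SE 0.11, limma adjusted p = 8.27e-06, and 0.0137 as deposited), or 2.24-fold lower in fhf1. PRM6, a pheromone-regulated membrane protein gene, differed by -0.90 (limma adjusted p = 0.000703). AGA1, the anchor subunit of a-agglutinin, stood at 0.52, 0.33 and 0.43 in fhf1 and at 1.37, 1.10 and 1.28 in fhf2, a difference of -0.83 (limma adjusted p = 0.00105). FIG1, a calcium channel component of mating cells, differed by -0.81 (limma adjusted p = 0.0435), and the call was lost without fhf1 culture 1 (0.131) or any single fhf2 culture (0.0554 to 0.269). Most of the 4 calls in this list were dim genes. By mean signal over the 12 arrays, FUS2, PRM6 and FIG1 ranked above 4.82%, 2.81% and 3.64% of genes, and AGA1 above 85.0%. TEC1, a transcription factor of filamentous growth that lies outside that list, stood at -0.99, -0.60 and -0.73 in fhf1 and at 0.27, 0.12 and 0.23 in fhf2, a difference of -0.99 (limma adjusted p = 0.000331).

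The strains are labelled as mating type alpha, and the genes specific to each mating type were read beside that label. Of 5 alpha-specific genes, SAG1, the alpha-agglutinin that alpha cells carry on their surface, was called. It stood at 1.04, 1.17 and 0.95 in fhf1 and at 2.02, 1.78 and 1.84 in fhf2, a difference of -0.84 (SE 0.12, limma adjusted p = 0.000731). The pheromone genes MF(ALPHA)1 and MF(ALPHA)2 differed by -0.14 and -0.28, the a-factor receptor gene STE3 by -0.20 and AFB1 by -0.39, and none of these passed. Of 7 a-specific genes 0 were called by limma in either version. MFA1 differed by -0.09, MFA2 by 0.21, STE2 by -0.32, STE6 by -0.03, BAR1 by 0.00, AGA2 by -0.49 and ASG7 by 0.32. By mean signal over the arrays, a ranking that also depends on probe brightness, the alpha-specific genes SAG1, MF(ALPHA)1, STE3, AFB1 and MF(ALPHA)2 ranked above 94.2%, 93.6%, 86.7%, 36.4% and 32.5% of genes. The a-specific genes MFA1, MFA2, STE6, STE2, ASG7, AGA2 and BAR1 ranked above 20.5%, 13.2%, 7.78%, 6.92%, 4.32%, 4.19% and 4.16%. The median level of the alpha-specific list was 0.81, 1.00 and 0.95 in fhf1 and 0.97, 1.20 and 1.34 in fhf2, which overlap. The ranking pools all 12 arrays, so it is no check of either mutant alone.

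FUS2 was at -0.26 from wild type in fhf1, not called, at 0.90 in fhf2, called, and at -0.74 in fhf3, called. SAG1 was below wild type by -0.72 in fhf1, called, at 0.11 in fhf2, not called, and at -0.32 in fhf3, called. TEC1 was below wild type by -1.47 in fhf1, -0.48 in fhf2 and -0.64 in fhf3, all called. As deposited, the TEC1 values in fhf2 and fhf3 did not pass.

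Some genes of G1 and S phase were lower in fhf1. Of 55 measured, 5 were called lower (CLN2, PCL1, MCD1, TOS4 and CDC21) and 0 higher, the median difference was -0.17, and 41 of the 55 lay below 0, against 2884 of 5769 over all genes. CLN2, a G1 cyclin that starts budding and DNA replication, stood at -0.20, 0.23 and -0.69 in fhf1, against 1.07, 0.67 and 0.98 in fhf2. The fhf1 cultures were spread over almost 1 log2 unit, and all were below fhf2. The difference was -1.14 (SE 0.19, limma adjusted p = 0.00187, and 0.0184 as deposited). PCL1, a cyclin partner of the kinase Pho85 in G1, stood at -3.08, -2.32 and -3.26 in fhf1 and at -1.49, -2.16 and -1.65 in fhf2. Its closest cultures were the second of each strain, which did not overlap, and the difference was -1.13 (SE 0.22, limma adjusted p = 0.00726, and 0.0229 as deposited). The call was lost without fhf2 culture 1 (0.0561) or culture 3 (0.0576). MCD1, a cohesin subunit, differed by -0.94 (limma adjusted p = 0.0143, and 0.115 without fhf2 culture 1). TOS4, a chromatin-bound protein of G1 and S phase, differed by -0.84 (limma adjusted p = 0.0234), and the call was lost without fhf1 culture 1 (0.0693) or fhf2 culture 1 or 3 (0.138 and 0.0859). TOS4 was dim, above 4.77% of genes by mean signal. The thymidylate synthase gene CDC21 differed by -0.64.

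Other cyclins did not pass. CLN1 differed by -0.53 (limma adjusted p = 0.191), CLN3 by 0.11, CLB5 by -0.36, CLB6 by 0.03, PCL2 by -0.30 and PCL9 by -0.19. Of 47 genes of G2, mitosis and mitotic exit 0 were called by limma in either version (median difference -0.12), and of 10 histone genes 0 were called, with all 10 below 0 and a median of -0.19. Called genes outside the lists that act in chromosome cohesion and replication were IRR1 at -0.62, CTF18 at -0.56 and TOF1 at -0.56, named after their values were seen. The median level of the G1 and S phase list was -0.33, -0.11 and -0.39 in fhf1 and -0.05, -0.25 and -0.08 in fhf2, so the lists as wholes overlapped. CLN2 was called below wild type in fhf1, by 1 log2 unit, while fhf2 was at 0.13 and fhf3 at -0.28, neither called. PCL1 was below wild type by -1.77 in fhf1, called, with fhf2 at -0.65 and fhf3 at -0.13, neither called.

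Meiosis and sporulation genes went both ways. Of 67 measured, 2 were called higher and 3 lower, and the median difference was 0.02. REC114, needed for meiotic DNA breaks, stood at -0.85, -0.84 and -0.62 in fhf1, against 0.39, 0.41 and 0.22 in fhf2. The strains did not overlap and the difference was -1.11 (SE 0.14, limma adjusted p = 0.000215, and 0.0229 as deposited). HOP2, which acts in meiotic pairing, differed by -0.84 (limma adjusted p = 0.00951, and 0.0876 without fhf2 culture 3). HOP2 was dim, above 3.10% of genes by mean signal. The meiotic activator gene IME1 differed by -0.51, at the threshold. SPS100, a spore wall gene, stood at -0.42, -1.11 and -0.81 in fhf1 and at -1.91, -1.73 and -1.83 in fhf2, a difference of 1.03 (SE 0.15, limma adjusted p = 0.000703). SPO73, also of the spore wall, differed by 0.82 (limma adjusted p = 0.00954), lost without fhf2 culture 1 (0.0669) or culture 3 (0.0859). Of the defining sporulation genes, IME2, NDT80, SPO11, HOP1, ZIP1, SPS4 and DIT1 were not called, and their differences were 0.34, 0.14, 0.03, -0.23, 0.25, -0.10 and -0.09. SPS100 was below wild type by -2.10 in fhf1, -3.14 in fhf2 and -3.97 in fhf3, all called. REC114 was below wild type by -1.53 in fhf1 and -1.42 in fhf3, both called, with fhf2 at -0.42 (limma adjusted p = 0.0907).

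Metal uptake differed in 4 of 49 genes of iron, copper and zinc, 1 higher and 3 lower, with a median difference of 0.07. CTR3, a high-affinity copper transporter, stood at -0.67, -0.42 and -0.38 in fhf1 and at 0.39, 0.54 and 0.53 in fhf2, a difference of -0.98 (SE 0.13, limma adjusted p = 0.000341). The zinc transporters ZRT1 and ZRT2, of high and low affinity, differed by -0.75 (limma adjusted p = 0.00638) and -0.68 (0.0107). The call of ZRT2 was lost without fhf2 culture 1 (0.0592) or culture 3 (0.0697). Their activator ZAP1 differed by 0.13, and the zinc genes ZRT3, ZRC1, COT1, IZH1 and ZPS1 by 0.15, -0.02, 0.24, 0.13 and -0.08, none of them called. FRE4, a reductase for siderophore iron, stood at 0.02, 0.17 and 0.29 in fhf1 and at -0.63, -0.65 and -0.62 in fhf2, a difference of 0.78 (SE 0.11, limma adjusted p = 0.000703). CTR3 was below wild type by -0.83 in fhf1 and by -2.85 in fhf3, both called, and stood at 0.15 in fhf2, not called.

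IMD3 and ELO2 were called as deposited from lists that otherwise held no call. IMD3, an IMP dehydrogenase of guanine nucleotide synthesis, stood at -1.99, -1.90 and -2.01 in fhf1, against -0.62, -0.99 and -1.05 in fhf2. The difference was -1.09 (SE 0.13, limma adjusted p = 0.000136, and 0.0242 as deposited), while its close paralogues IMD2 and IMD4 differed by -0.23 and -0.27 without passing. ELO2, which lengthens fatty acids, stood at -2.24, -1.86 and -1.90 in fhf1 and at -0.77, -1.17 and -0.89 in fhf2. The difference was -1.06 (SE 0.16, limma adjusted p = 0.00105, and 0.0429 as deposited), with ELO1 at 0.01 and ELO3 at -0.68 (0.0534). Both were below wild type in fhf1, IMD3 by -1.83 and ELO2 by -1.42, and in fhf2 IMD3 was lower by -0.74, called, and ELO2 was at -0.37, not called.

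Lists of stress, cell wall and vitamin genes held 7 further calls. Of 64 general stress genes, 2 were called higher: ICY1 at 0.87 and FMP48 at 0.85. FMP48, a mitochondrial protein kinase, stood at 1.28, 1.46 and 1.67 in fhf1 and at 0.46, 0.74 and 0.64 in fhf2 (SE 0.13, limma adjusted p = 0.00112). Of 54 genes of the cell wall and flocculation, FLO11 was higher at 0.68 and CIS3 and SUN4 were lower at -0.72 and -0.73. FLO11, the adhesin of biofilms and invasive growth, stood at 2.00, 2.43 and 2.05 in fhf1 and at 1.65, 1.18 and 1.57 in fhf2. Its call (limma adjusted p = 0.0259) was lost without fhf1 culture 2 (0.112), fhf2 culture 2 (0.163) or fhf2 culture 3 (0.0771). That of CIS3, a wall mannoprotein, was lost without fhf1 culture 1 or fhf2 culture 1 or 3 (0.131 to 0.177), and that of SUN4 without fhf2 culture 3 (0.095). Of 28 thiamine and pyridoxine genes, THI22 was higher at 0.70 and THI4, an enzyme of thiazole synthesis, at 0.53. The THI4 call (limma adjusted p = 0.0294) was lost in 5 of the 6 fits that leave out a culture.

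DIN7, a mitochondrial nuclease gene, was higher at 0.70 (limma adjusted p = 0.00346). The short genes YBR072C-A and YMR175W-A were called in both versions of the test, each at 1.22. YBR072C-A stood at -1.01, -1.56 and -1.42 in fhf1 and at -2.56, -2.13 and -2.99 in fhf2. YMR175W-A stood at -1.76, -1.89 and -1.56 in fhf1 and at -3.09, -2.53 and -3.27 in fhf2. The strains did not overlap in either gene. YMR244W was higher at 1.03, and YOL014W and YPR078C were lower at -0.95 and -0.98, the last 2 losing the call without fhf2 culture 3 (limma adjusted p = 0.051 and 0.0938). The roles of these 5 genes are not stated here.

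The large lists of protein synthesis held almost no calls. Of 131 cytosolic ribosomal protein genes, RPS14B was called lower at -0.55 (limma adjusted p = 0.0258), a call lost in 5 of the 6 fits that leave out a culture, and its near-identical copy RPS14A differed by -0.07. The list's median difference was -0.16 and 115 of its 131 members lay below 0. The list's median level was 0.04, 0.41 and 0.66 in fhf1 and 0.57, 0.49 and 0.59 in fhf2. The fhf1 cultures thus spanned a wider range than all of fhf2, and the third fhf1 culture was above every fhf2 culture. Of 74 mitochondrial ribosomal protein genes 0 were called by limma in either version, although 69 lay below 0 (median difference -0.24). Their median level was -0.10, 0.11 and 0.42 in fhf1 and 0.30, 0.49 and 0.43 in fhf2, which also overlap. Of 122 ribosome biogenesis genes 0 were called, with a median of -0.06. Of 34 ergosterol synthesis genes 0 were called, with a median of 0.20, and their median level was 1.80, 2.07 and 1.92 in fhf1 and 1.72, 1.69 and 1.65 in fhf2, without overlap. Several other list medians did not overlap either, so this does not single out ergosterol synthesis. The nitrogen catabolite repression list, for example, stood at 0.68, 0.44 and 0.45 in fhf1 and 0.29, 0.30 and 0.34 in fhf2. Since members of such lists move together from culture to culture, the counts below and above 0 are not counts of independent observations.

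**Figure D4:**
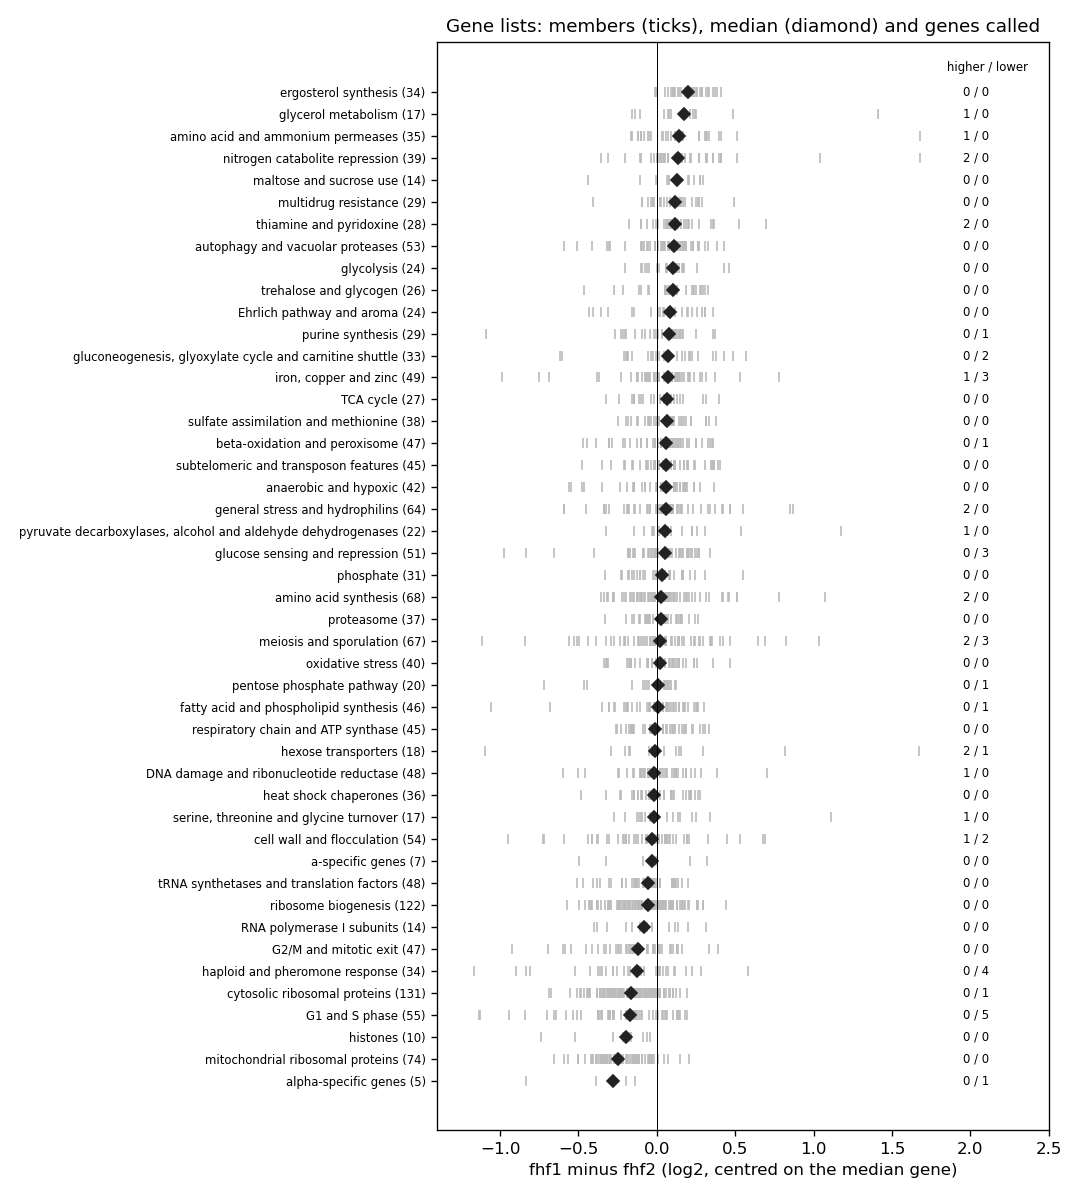
Differences between fhf1 and fhf2 (log2, centred on the median gene) for the members of 46 gene lists, with the number measured in brackets. Grey ticks are genes, diamonds are list medians, and the numbers at the right are members called higher and lower in fhf1 at a common median. Medians lie close to 0 in most lists, and calls are few: the longest counts are 5 lower in G1 and S phase and 4 lower in haploid and pheromone response.

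Set beside wild type, the 36 genes higher in fhf1 and the 62 lower in fhf1 had different compositions. Against wild type at a common median, limma called 318 genes higher (5.51%) and 640 lower (11.1%) in fhf1, 93 higher (1.61%) and 290 lower (5.03%) in fhf2, and 1112 higher (19.3%) and 1464 lower (25.4%) in fhf3. Of the 36 genes, 17 were called above wild type in fhf1 and 4 below it, while in fhf2 4 were called above and 21 below. Their median difference from wild type was 0.34 in fhf1, -0.52 in fhf2 and -0.40 in fhf3. Of the 62 genes, 55 were called below wild type in fhf1 and 0 above, while in fhf2 10 were called below and 5 above. Their median difference was -0.74 in fhf1, -0.07 in fhf2 and -0.33 in fhf3. As both mutants were set against the same 3 wild-type cultures and the genes were chosen for a difference between the mutants, these counts are descriptions without a test.

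**Figure D5:**
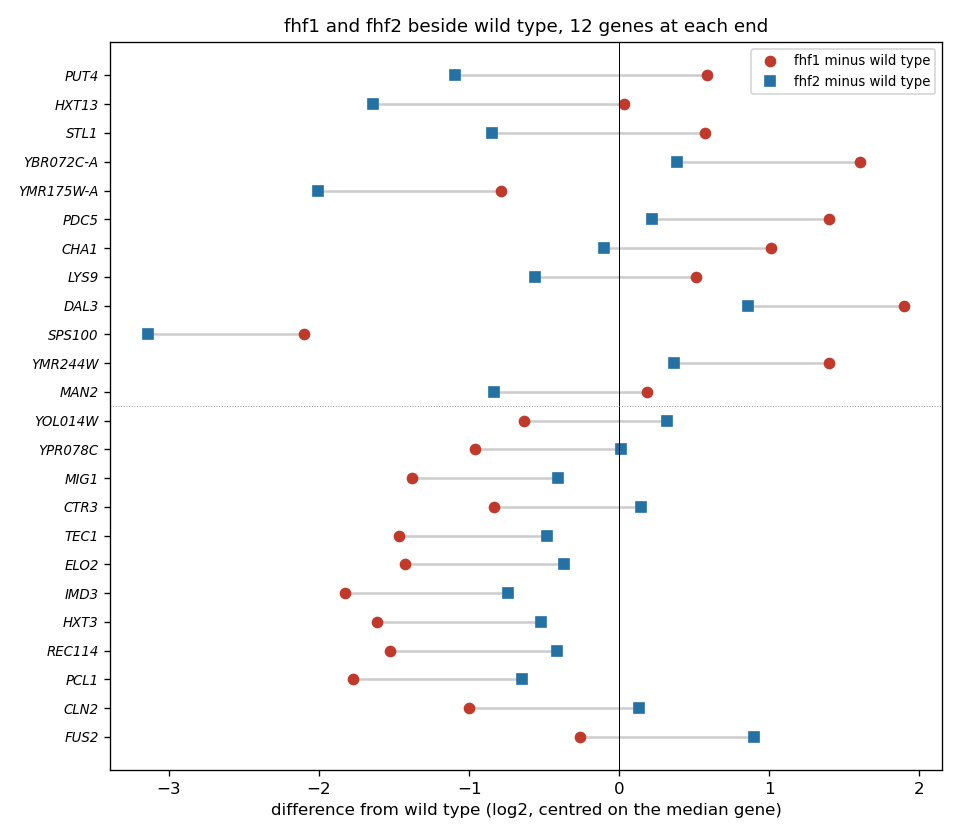
Difference from wild type (log2, centred on the median gene) of fhf1 (circles) and fhf2 (squares) for the 12 called genes with the largest difference higher in fhf1 (above the dotted line) and the 12 with the largest lower in fhf1 (below it). PUT4, STL1 and LYS9 lie on opposite sides of wild type in the mutants, HXT13 and MAN2 lie near 0 in fhf1 and below it in fhf2, and HXT3, MIG1 and IMD3 lie below wild type in both.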

How the data were processed

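Transcripts of 12 Y55 cultures (4 strains, 3 each) were read from the deposited log2 value table, in which the authors give 1 log2 value per gene and sample. Per the submitters' processing notes limma was used, while the scanner settings, background correction, probe summary and genome build were not given in the sources used here. For each mutant against wild type, a deposited table holds log2 fold changes, a t score and p-values that, per the file headers, belong to each comparison. It has 5777 rows with values and 103 without, and 8 of its genes are not analysed here. Its differences equal those of the group means within 4.9e-08.

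Limma 3.58.1 in R 4.3.3 was fitted to the 12 arrays, with the contrast centred on the median of 5769 genes, two-sided tests and Benjamini-Hochberg adjustment. Called genes have an adjusted p under 0.05. The fit with each array centred on its own median was listed among the alternatives and used as a second set of calls after the data were seen. The naming rule took the 12 largest called genes per direction with cultures that do not overlap, up to 4 called members per list, all maltose, main hexose and mating type genes, and up to 4 genes per pattern beside wild type. It was applied to both sets of calls. Further genes, and the sets marked so, were chosen after their values were seen. Members and the 46 gene lists were chosen with earlier results of these data known. GAT1 was taken out of the lipid list, where it named a nitrogen regulator. Of all loci 5763 matched an R64 name table. The number of arrays limits the precision. Scripts were tested on simulated data. Figures used matplotlib.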

Additional observations from a re-analysis of the deposited data

How the results depend on the processing

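Called genes on the values as deposited (15) came to 98 with each array on its own median, 92 with quantile normalization, 24 with the 6 samples of fhf1 and fhf2 alone, 307 with array weights and 0 with each gene's own variance in limma (114 at an unadjusted p under 0.05). The array weights ran from 0.043 to 1210, with the highest on 1 wild-type array. The 2-fold test called 1 gene with array weights and 0 in the other fits. Leaving out each culture in turn gave between 2 and 13 calls as deposited, and between 46 and 223 against 98 at a common median (63 without fhf2 culture 1). At a common median, 54 genes were called without the dimmest 25%, and 49 of them were among the 98. With each gene's own variance 45 were called, 36 of them among the 98. Array weights gave 258 calls and the replicate block 177, and both held all 98. Quantile normalization split its 92 calls into 44 higher and 48 lower, against 36 and 62. Whether equal replicate numbers mark anything shared between the strains is not settled. Same-numbered deviations correlated at 0.42, -0.11 and 0.21, and differently numbered ones between -0.49 and 0.30. With the replicate block 14 genes were called as deposited. No named gene that was called changed direction in any of these fits. The promoter motif description was not run. The remaining settings (no centring, a lowess centring, trend and robust variance) kept the counts within 1.5 times of 15 and of 98.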
